A study of Mus musculus with 20 samples.

Results

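Cholinergic neurons make, store and release acetylcholine, and 5 genes tied to these neurons are described here: Chat, Slc18a3, Slc5a7, Ache and Lhx8. They are 5 of the 23845 genes in the deposited tables, and all 5 had enough reads to be tested. They were chosen by name because Slc18a3 ranked first, by p, in the comparison of J17a with Wild type brains. The measured values of that comparison therefore chose them, and they are given for it and for every other comparison with Wild type or J17a libraries as a description, with no test.

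Choline acetyltransferase (Chat) joins choline to an acetyl group, the vesicular acetylcholine transporter (Slc18a3) loads the product into synaptic vesicles, and the high-affinity choline transporter (Slc5a7) brings choline back into the terminal. Acetylcholinesterase (Ache) splits released acetylcholine and is also made by cells that do not release it. Lhx8 is a LIM homeobox factor needed for cholinergic neurons of the forebrain to form, whereas cholinergic motor neurons of the brainstem arise without it. In the brain Chat, Slc18a3 and Slc5a7 mark a small set of cells in the basal forebrain, striatum, medial habenula, brainstem and cranial motor nuclei.

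RNA came from the brains of mice whose strain is given as C57/Bl6J for every genotype. There were 20 libraries: 3 of Wild type, 3 of J17a and 2 of J17b, then 3 of J27b and 3 of J27a, and 3 of each line coded lf/lf (J1 lf/lf and J2 lf/lf). The series concerns isoforms of the kinase JNK and sets single isoform knockouts beside controls, all on a normal diet. JNK1 is encoded by Mapk8 and JNK2 by Mapk9. What each code stands for, whether a named isoform was kept or removed, and the animals' age are not stated, nor whether replicates are different mice. The p-values therefore measure only the spread between these samples, which may be technical. Library totals ran from 21395041 to 33828755 estimated counts. In 3 libraries (J1 lf/lf replicate 3, Wild type replicate 2 and J27a replicate 3) 6 anterior pituitary hormone genes summed to 2598 to 11610 TPM (a transcript level scaled for length and depth), against 1.18 to 393.9 TPM in the other 17. The joint test and the tested comparisons below were repeated without those libraries. A list of 6 general neuron genes summed to between 5364 and 6338 TPM in every library.

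Chat and Slc18a3 share a locus, which bears on how their counts can be read. In mm10 with GENCODE release M21, Slc18a3 is a gene of 1 exon (chromosome 14, 32462438 to 32464850, 2413 bases, minus strand) that lies inside an intron of Chat (chromosome 14, 32408203 to 32465989, minus strand). The exons of the pair share 0 bases in that annotation. Reads of unspliced Chat RNA across the Slc18a3 exon cannot be told apart from Slc18a3 reads in these counts. Slc5a7 lies on chromosome 17 (54273590 to 54299034, minus strand), Ache on chromosome 5 (137287519 to 137294466, plus strand) and Lhx8 on chromosome 3 (154306294 to 154330659, minus strand). The bases just before the starts of Slc18a3, Chat and Slc5a7 are shown, from RefSeq (GRCm38.p6), each 5′ to 3′ on the gene's own strand. Capitals mark matches, on either strand, to a GC box (GGGCGG) or to the half-site of the cyclic AMP response element (TGACG).
Slc18a3, chr14:32464851-32465100, minus strand: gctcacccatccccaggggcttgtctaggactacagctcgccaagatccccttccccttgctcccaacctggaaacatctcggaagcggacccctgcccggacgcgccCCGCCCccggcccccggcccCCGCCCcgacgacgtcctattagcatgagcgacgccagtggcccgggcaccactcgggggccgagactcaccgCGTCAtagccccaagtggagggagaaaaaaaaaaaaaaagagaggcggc
Chat, chr14:32465990-32466159, minus strand: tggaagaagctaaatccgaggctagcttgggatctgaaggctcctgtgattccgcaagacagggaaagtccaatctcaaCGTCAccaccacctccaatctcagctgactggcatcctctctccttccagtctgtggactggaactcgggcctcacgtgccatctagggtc
Slc5a7, chr17:54299035-54299284, minus strand: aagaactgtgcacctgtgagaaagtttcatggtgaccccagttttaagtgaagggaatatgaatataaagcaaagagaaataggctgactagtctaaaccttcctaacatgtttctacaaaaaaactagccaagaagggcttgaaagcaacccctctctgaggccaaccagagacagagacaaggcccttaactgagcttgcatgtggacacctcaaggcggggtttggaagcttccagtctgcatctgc

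The Slc18a3 and Slc5a7 windows are 250 bases long, and the Chat window is cut to 170 bases where an annotated exon begins. The Slc18a3 window overlaps an annotated exon of another gene, Gm2990, and the Slc5a7 window overlaps none. Of these bases, 66% were G or C in the Slc18a3 window and 45.6% in that of Slc5a7, against a median of 52.4% over all RefSeq promoters of that length. A GC box stood at 2 places in the Slc18a3 window and was present in 32.7% of 32851 promoters. The 250-base RefSeq window of Ache, which is not shown, held 4 matches to it. That window lies inside Ache as placed above and overlaps an Ache exon, so it is not sequence before the gene. The Slc18a3 and Chat windows each held 1 cyclic AMP half-site, which was present in 17.8% of promoters. Neither motif occurred in the Slc5a7 window. The AP-1 motif TGANTCA (6.75% of promoters) and the LIM homeodomain core TAATTA (4.84%) had no match in the 250-base window of any of the 5 genes. The full windows of Chat, Ache and Lhx8 overlap exons of their own gene. These letters alone say nothing about binding.

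The levels of the 5 genes differed widely. On the length-scaled TPM scale, the mean over the 20 libraries was 120.4 for Ache, 8.49 for Slc5a7, 6.85 for Slc18a3, 6.25 for Chat and 2.75 for Lhx8. Ache thus stood far above the 4 others in every library, at 99.1 TPM or more, while the highest value among those 4 was 15.4 TPM, for Slc5a7 in J17a replicate 3. Each gene had reads in every library, from 31 estimated counts for Lhx8 in J1 lf/lf replicate 3 to 3532 for Ache. In bulk brain RNA, fewer cholinergic cells and less RNA per cell cannot be told apart.

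The spread between replicates was wide for 4 of the 5. Within groups, the SD of log2 CPM (counts scaled to library size with TMM factors) was 0.36 for Chat, 0.37 for Slc18a3, 0.33 for Slc5a7, 0.47 for Lhx8 and 0.10 for Ache. Of the tested genes within 0.5 log2 units of the same mean level, 94.5% had a smaller SD than Chat, 93.8% a smaller one than Slc18a3 and 97.8% a smaller one than Slc5a7. Ache was ordinary by this measure, at 50.7%, and Lhx8 stood at 80.5%.

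**Figure D1:**
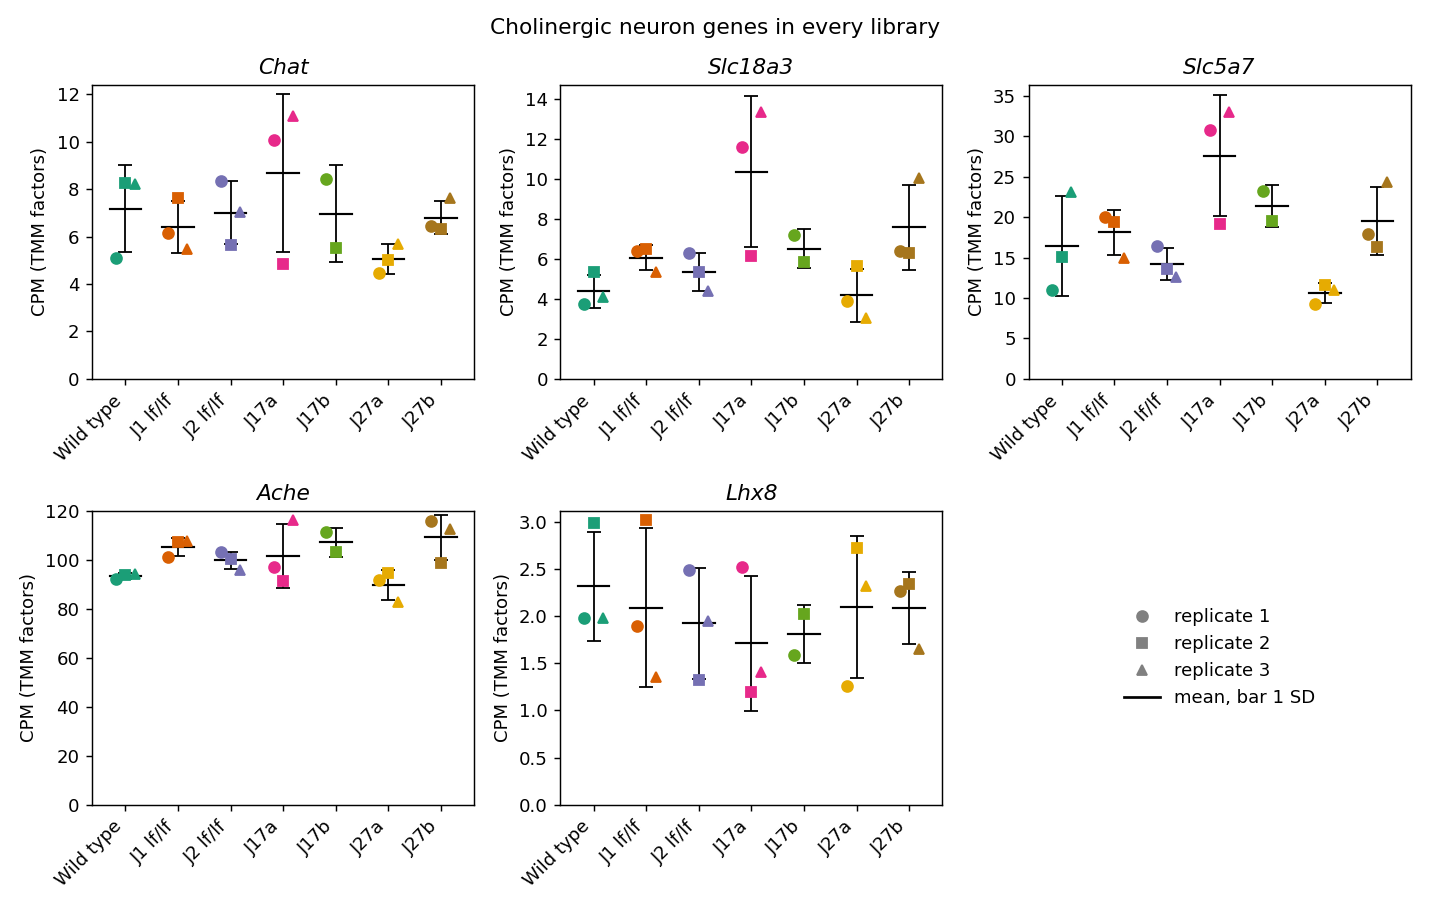
CPM of each gene (vertical axis, from 0) in every library of the 7 genotypes (horizontal axis); points are libraries, with the replicate number as the point's shape, lines are group means and bars 1 SD. J17a replicates 1 and 3 stand above every other library for Chat, Slc18a3 and Slc5a7, J17a replicate 2 does not, and the Ache values lie within 82.9 to 116.4 CPM.

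Synthesis came first in the order of roles. Chat stood at 5.08, 8.25 and 8.21 CPM in the Wild type libraries (mean 7.18 ± 1.82, SD, n = 3). In J17a it was 10.07, 4.86 and 11.08 CPM, so that replicates 1 and 3 were the highest of all 20 libraries and replicate 2 was the second lowest. The log2 fold of J17a to Wild type was 0.27 (SE 0.25). In the remaining groups Chat averaged 5.05 ± 0.62 CPM in J27a and between 6.41 and 7.01 CPM in J1 lf/lf, J2 lf/lf, J17b and J27b. Every neighbouring pair of groups, ordered by mean, overlapped.

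Vesicle loading showed the pattern for which the genes were chosen. Slc18a3 stood at 3.75, 5.32 and 4.08 CPM in Wild type (4.39 ± 0.83, SD, n = 3) and at 11.6, 6.13 and 13.35 CPM in J17a (10.36 ± 3.77, SD, n = 3). All 3 J17a libraries were above all 3 Wild type libraries, and replicates 1 and 3 were the highest of the series. Of all tested genes, 3.47% separated in that way. The J17a mean was 235.3% of Wild type in the edgeR fit (log2 fold 1.23, SE 0.26), and between 1.01 and 1.51 when any 1 library of those groups was left out. It was 1.403 without the libraries high in pituitary transcripts, of which Wild type replicate 2 is one.

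That comparison was thin over the whole table. By edgeR it called 0 of 16063 genes at an adjusted p of 0.05 (0%), with 705 at an unadjusted p under 0.05, while DESeq2 called 1 gene and limma on TPM called 0. The gene DESeq2 called is Slc18a3, on which the choice rests, so nothing is read from that call. The genes just behind Slc18a3 by p were Anapc15 (log2 fold 0.84, SE 0.18) and Ccdc109b (log2 fold -1.49, SE 0.33). Slc18a3 ranked 1 by edgeR and DESeq2 and 4 by limma.

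The other genotypes lay between Wild type and J17a or near Wild type. Slc18a3 stood at 6.38, 6.47 and 5.34 CPM in J1 lf/lf, at 6.27, 5.36 and 4.40 CPM in J2 lf/lf and at 7.19 and 5.84 CPM in J17b. It stood at 3.87, 5.63 and 3.05 CPM in J27a and at 6.38, 6.30 and 10.03 CPM in J27b. Relative to Wild type the log2 fold was 0.46 in J1 lf/lf (SE 0.27), 0.28 in J2 lf/lf (SE 0.27), 0.57 in J17b (SE 0.30), -0.07 in J27a (SE 0.27) and 0.78 in J27b (SE 0.26). All these folds share the 3 Wild type libraries, so they are not 5 separate measurements. The order of means was J17a, J27b, J17b, J1 lf/lf, J2 lf/lf, Wild type and J27a, and each group overlapped the next.

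Choline uptake followed the same libraries. Slc5a7 stood at 11.05, 15.07 and 23.15 CPM in Wild type (16.43 ± 6.16, SD, n = 3), a wide spread in which replicate 3 was above every library of J1 lf/lf, J2 lf/lf and J27a. In J17a it was 30.74, 19.13 and 32.97 CPM, again with replicates 1 and 3 above every other library and replicate 2 within the Wild type range. The log2 fold of J17a to Wild type was 0.75 (SE 0.24), which ranked 67 of 16063 by p. It ran from 0.54 without Wild type replicate 1 to 1.08 without Wild type replicate 3, and was 0.70 without the libraries high in pituitary transcripts.

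Slc5a7 was lowest in J27a, at 9.22, 11.56 and 11.05 CPM (10.61 ± 1.23, SD, n = 3). Those 3 values lay below every library of J1 lf/lf (14.93 to 20.07 CPM), J2 lf/lf (12.57 to 16.41 CPM), J17b (19.55 and 23.24 CPM) and J27b (16.34 to 24.36 CPM). Of all tested genes, 0.635% had all J27a libraries below all libraries of those 4 groups. The J27a and Wild type ranges overlapped.

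Acetylcholine breakdown varied least. Ache stood at 92.18, 93.79 and 94.39 CPM in Wild type (93.5 ± 1.14, SD, n = 3) and at 97.03, 91.52 and 116.4 CPM in J17a, a log2 fold of 0.12 (SE 0.08). The means were 89.8 ± 6.12 CPM in J27a, 99.9 ± 3.54 in J2 lf/lf, 105.4 ± 3.75 in J1 lf/lf, 107.3 ± 5.90 in J17b (n = 2) and 109.2 ± 9.14 in J27b (SD, n = 3 otherwise). Every J1 lf/lf, J2 lf/lf, J17b and J27b library was above every Wild type and every J27a library, as in 0.0623% of tested genes (10 of 16063). That split was noticed in the values and has no test.

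Lhx8, the forebrain factor, stood at 1.98, 2.99 and 1.98 CPM in Wild type and at 2.53, 1.198 and 1.41 CPM in J17a, a log2 fold of -0.44 (SE 0.35). Group means lay between 1.71 CPM (J17a) and 2.32 CPM (Wild type), all neighbours overlapped, and single libraries ran from 1.198 to 3.02 CPM.

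The ratio of Slc18a3 to Chat, taken as TPM over TPM within a library, was higher in every J17a library than in any Wild type library. It was 0.876, 0.767 and 0.591 in Wild type (0.744 ± 0.144, SD, n = 3) and 1.37, 1.499 and 1.43 in J17a (1.43 ± 0.066, SD, n = 3). J17a replicate 2, whose Chat and Slc18a3 levels lay within the range of the other genotypes, had the highest ratio of its group. The ratio was 1.23, 1.01 and 1.16 in J1 lf/lf, 0.892, 1.13 and 0.744 in J2 lf/lf, and 1.01 and 1.26 in J17b. It was 1.04, 1.33 and 0.638 in J27a and 1.18, 1.18 and 1.57 in J27b, so J27b overlapped J17a. All Wild type ratios lay below all those of J1 lf/lf, J17a, J17b and J27b and overlapped those of J2 lf/lf and J27a. Slc18a3 was part of the choice of genes, so no test is given.

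**Figure D2:**
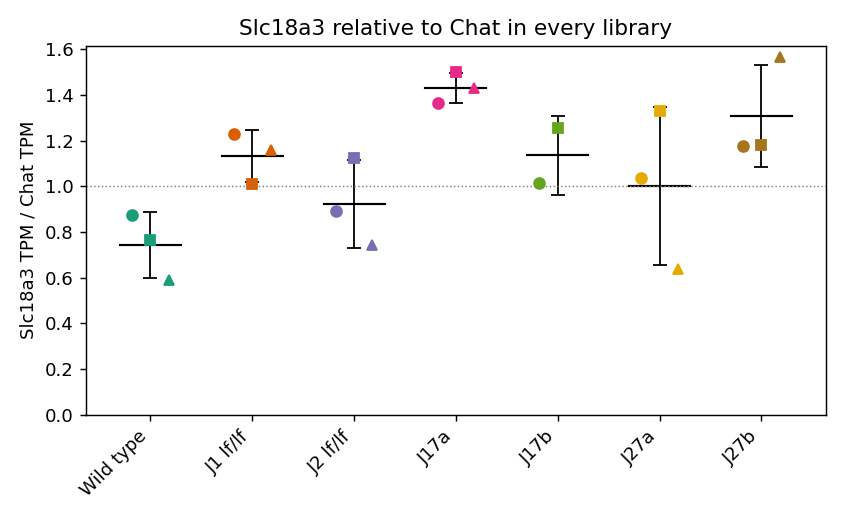
Slc18a3 TPM divided by Chat TPM (vertical axis, from 0) in every library of the 7 genotypes (horizontal axis); circles, squares and triangles are replicates 1, 2 and 3, lines are group means, bars 1 SD, and the dotted line marks equal TPM. The 3 Wild type libraries lie between 0.591 and 0.876 and the 3 J17a libraries between 1.37 and 1.499.

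The groups outside that choice gave the tests. Across J1 lf/lf, J2 lf/lf, J17b, J27a and J27b, none of the 5 genes passed a joint edgeR test of any difference among the 5 groups. That test called 18 of 16063 genes (0.112%), with 1113 at an unadjusted p under 0.05. Slc5a7 came closest among the members (adjusted p = 0.433 by edgeR, unadjusted p = 0.00782), followed by Ache (adjusted p = 0.559, unadjusted p = 0.0204) and Slc18a3 (adjusted p = 0.731, unadjusted p = 0.0537). Chat (adjusted p = 0.951 by edgeR) and Lhx8 (adjusted p = 0.999) differed by less than the spread between replicates could resolve.

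The result for Slc5a7 depended on the test. DESeq2 called it (adjusted p = 0.0190) among its 176 genes (1.1% of 16049). EdgeR called it when only the 14 libraries of these groups entered the fit (adjusted p = 0.0142), with 189 genes of 15773 called (1.2%). Limma on log2(TPM + 1), which called 8 genes, gave it an adjusted p of 0.576. Without the 3 libraries high in pituitary hormone transcripts, the edgeR adjusted p was 0.739.

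Of the 4 tested comparisons, J27a against J27b showed the lowest unadjusted p for Slc5a7, Slc18a3 and Ache. In J27a relative to J27b the log2 fold was -0.88 for Slc5a7 (95% interval -1.39 to -0.36), -0.85 for Slc18a3 (-1.40 to -0.29) and -0.28 for Ache (-0.45 to -0.11). All 3 J27a libraries were below all 3 J27b libraries for these genes and for Chat, whose log2 fold was -0.43 (-0.97 to 0.11), that is for 4 of the 5 members, against 8.82% of all tested genes. Lhx8 was at -0.001 (-0.72 to 0.71). None passed adjustment over all genes: the edgeR adjusted p was 0.553 for Slc5a7, 0.554 for Ache and 0.639 for Slc18a3.

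For J27a against J27b, edgeR called 0 of 16063 genes (0%), with 930 at an unadjusted p under 0.05, DESeq2 called 1 that is not among these 5, and limma on TPM called 0. Of the members, 3 were below an unadjusted p of 0.05, with p of 0.00226 (Slc5a7), 0.00238 (Ache) and 0.00461 (Slc18a3) in the edgeR fit. With only the 6 libraries of the comparison in the fit, Slc5a7 was the 1 member to pass (edgeR adjusted p = 0.0168), and that fit called 125 of 15169 genes (0.824%). Leaving out J27b replicate 3, the highest of its group for Slc18a3 and Slc5a7, gave -0.59 for Slc18a3 and -0.69 for Slc5a7. Leaving out the libraries high in pituitary transcripts gave -0.67 and -0.91.

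Against J2 lf/lf, the differences of J27a and J27b were smaller than the intervals could resolve. J27a relative to J2 lf/lf gave -0.47 for Chat (95% interval -1.01 to 0.07), -0.35 for Slc18a3 (-0.91 to 0.22), -0.42 for Slc5a7 (-0.94 to 0.11) and -0.15 for Ache (-0.32 to 0.02). J27b relative to J2 lf/lf gave 0.50 for Slc18a3 (-0.04 to 1.05), 0.46 for Slc5a7 (-0.05 to 0.97), 0.13 for Ache (-0.04 to 0.30) and -0.05 for Chat (-0.58 to 0.48). In each of these comparisons edgeR called 1 of 16063 genes (0.00623%) and 0 of the 5 members. The intervals reach to -0.91 and 1.05 for Slc18a3, so like levels were not shown. Lhx8 was at 0.12 in both (-0.61 to 0.85 and -0.60 to 0.85).

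Single libraries moved several of these values. Without J27b replicate 3 the fold of J27b to J2 lf/lf was 0.25 for Slc18a3 and 0.27 for Slc5a7. Slc18a3 in J27a against J2 lf/lf was -0.17 without J27a replicate 3, -0.22 without J2 lf/lf replicate 1 and -0.62 without J27a replicate 2. With a term for libraries whose title number is above 10, Lhx8 was at 1.07 in both comparisons, outside its intervals above, with an edgeR adjusted p of 0.858 in J27a and 1 in J27b. Slc18a3 was then at -0.0944 and 0.75, and Slc5a7 at -0.18 and 0.70. J17a is the only genotype with libraries on both sides of that number, with replicate 1 not above it and the other replicates above it, so the term rests on those 3 libraries.

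Between J17b and J1 lf/lf no difference was resolved in these genes, and the width of the intervals means that like levels were not shown. The log2 fold was 0.12 for Chat (95% interval -0.48 to 0.72), 0.10 for Slc18a3 (-0.51 to 0.72), 0.24 for Slc5a7 (-0.32 to 0.80), 0.03 for Ache (-0.16 to 0.22) and -0.23 for Lhx8 (-1.06 to 0.61). EdgeR called 5 of 16063 genes in this comparison (0.0311%) and 0 of the 5 members. With 2 libraries in J17b, single libraries set the sign: without J17b replicate 1 the fold was -0.23 for Chat, -0.06 for Slc18a3 and -0.04 for Ache.

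**Figure D3:**
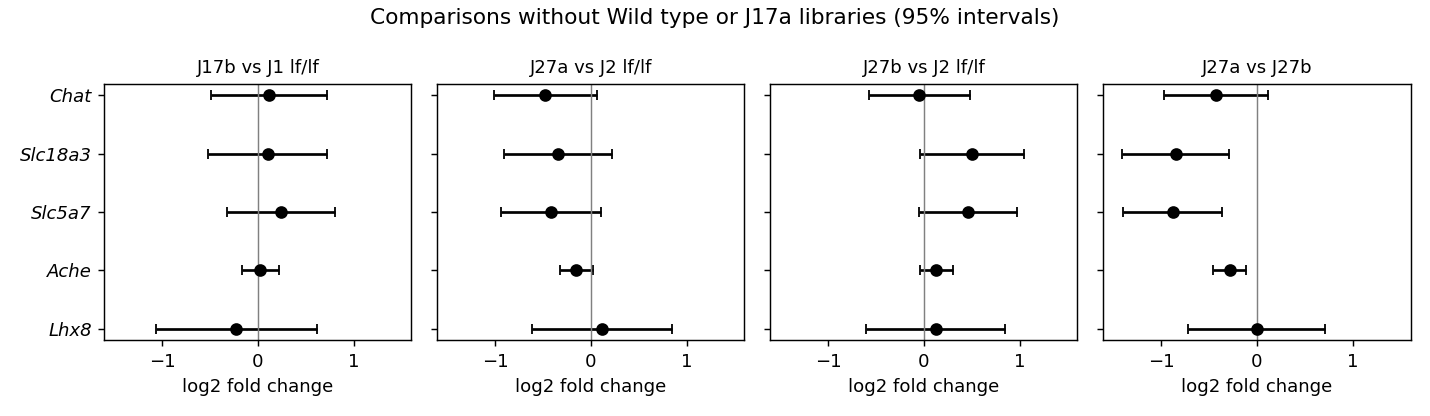
Log2 fold change (horizontal axis) of the 5 genes (vertical axis) in the 4 comparisons that use neither Wild type nor J17a libraries; points are edgeR estimates and bars 95% intervals. In J27a against J27b the intervals of Slc18a3, Slc5a7 and Ache lie below 0, and none of the 5 genes passes adjustment over 16063 genes in any panel.

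Slc18a3, Slc5a7 and Ache varied together from library to library, and Chat with Slc5a7. Over the 14 libraries outside Wild type and J17a, log2 CPM of Slc18a3 and Slc5a7 had a Pearson r of 0.86 (permutation p = 5e-05, 0.0005 adjusted over 10 pairs) and a Spearman rho of 0.91 (adjusted permutation p = 0.0002). Without the 2 libraries farthest from the median of Slc18a3, r was 0.88, and within groups, after group means were subtracted, it was 0.74. Part of the relation thus stood inside genotypes as well as between them.

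Slc18a3 and Ache had an r of 0.84 (permutation p = 0.00018, adjusted p = 0.0009; rho 0.74, adjusted permutation p = 0.0120), 0.70 without the 2 farthest libraries and 0.60 within groups. Slc5a7 and Ache had an r of 0.80 (permutation p = 0.00051, adjusted p = 0.0017; rho 0.81, adjusted permutation p = 0.0046) and 0.75 without the 2 farthest libraries, but 0.30 within groups. The relation of that pair was thus weaker inside genotypes than across them. The permutations shuffled libraries without regard to genotype, so their p-values also take in differences between genotypes.

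The r values of Chat with the other handling genes were lower. With Slc5a7 r was 0.70 (permutation p = 0.00584, adjusted p = 0.0146; rho 0.61, adjusted permutation p = 0.0471) and 0.71 within groups, but 0.49 without the 2 libraries farthest from the median of Chat, on which the relation partly rests. With Slc18a3, its neighbour in the locus, r was 0.58 (permutation p = 0.0290, adjusted p = 0.0581; rho 0.66, adjusted permutation p = 0.0303), 0.43 without the 2 farthest libraries and 0.36 within groups. With Ache r was 0.54 (permutation p = 0.0469, adjusted p = 0.0782; rho 0.51, adjusted permutation p = 0.112), and 0.17 within groups, so that pair did not pass.

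The r of Lhx8 was 0.31 with Chat, 0.12 with Slc5a7, 0.07 with Slc18a3 and -0.08 with Ache (adjusted permutation p from 0.401 to 0.804). Within groups those values were 0.47, 0.32, 0.10 and -0.13, so for Chat and Slc5a7 they were higher inside genotypes than across them. Over all 20 libraries, the r of Slc18a3 was 0.83 with Slc5a7, 0.69 with Ache, 0.65 with Chat and -0.04 with Lhx8, given as a description. Values of the same library share its depth and its tissue content.

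**Figure D4:**
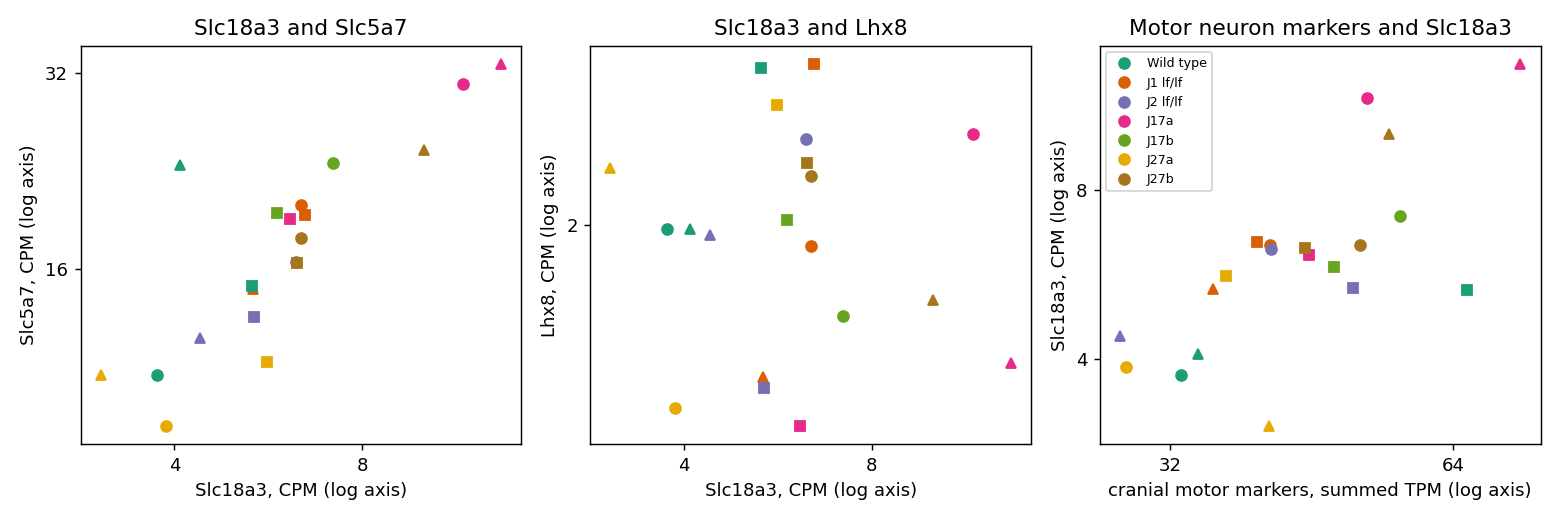
Each point is 1 of the 20 libraries, coloured by genotype, with circles, squares and triangles for replicates 1, 2 and 3; all axes are logarithmic. Slc18a3 CPM is set against Slc5a7 CPM (left) and Lhx8 CPM (middle), and the summed TPM of 7 cranial motor neuron markers against Slc18a3 CPM (right). Points rise together in the left panel (r of 0.83 over 20 libraries) and not in the middle panel (r of -0.04).

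Markers of cranial motor neurons, the cholinergic cells of the brainstem nuclei, moved with Slc5a7. A list of 7 such genes, among them Prph, Calca and Ecel1, had 5 tested members. Their mean log2 level had an r of 0.87 with Slc5a7 over the 14 libraries (permutation p = 0.00011, adjusted over 75 list and gene relations p = 0.00825; rho 0.83, adjusted permutation p = 0.0285). That r was 0.79 without the 2 farthest libraries and 0.90 within groups, and it was the 1 relation of 75 with an adjusted p under 0.05. These relations were examined after the data had been seen.

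With Slc18a3 the r of the motor neuron list was 0.69 (permutation p = 0.00417, adjusted p = 0.129; rho 0.75, adjusted permutation p = 0.0638), with Ache 0.67, with Chat 0.40 and with Lhx8 0.04. In J27a against J27b 0 of the 5 tested list members were positive (median log2 difference -0.67, against -0.001 over all genes). In J17a against Wild type 5 of 5 were positive (median 0.42). By edgeR 0 of the 5 were called in J27a against J27b, with 1 at an unadjusted p under 0.05.

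The summed level of the 7 motor neuron markers was 32.9 to 66.3 TPM in Wild type, 45 to 75.5 in J17a, 47.9 to 56.2 in J17b and 44.6 to 54.8 in J27b. It was 35.6 to 40.9 TPM in J1 lf/lf, 28.3 to 50.2 in J2 lf/lf and 28.8 to 40.8 in J27a, and no marker was at 0 in every library. The part of motor neuron content in the member differences was not tested.

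Hox genes of the hindbrain and spinal cord mostly had the same sign as Slc18a3 and Slc5a7 in these comparisons. Of 15 tested, 14 were negative in J27a against J27b (median log2 difference -1.22) and 15 were positive in J17a against Wild type (median 1.79). By edgeR 0 were called in J27a against J27b, with 3 at an unadjusted p under 0.05. Their summed level was 5.58 to 15.5 TPM in J27a and 21.1 to 33.5 in J27b, and 2.87 to 18.5 in Wild type and 4.31 to 82.1 in J17a. J17a replicate 1, high in Slc18a3, had the lowest Hox sum of its group (4.31 TPM). Over the 14 libraries the r of the Hox list was 0.43 with Slc18a3 (permutation p = 0.123, adjusted p = 0.571) and 0.40 with Slc5a7 (permutation p = 0.157, adjusted p = 0.571). Without the 2 libraries farthest from the median of the list those r values were 0.65 and 0.61, and within groups 0.25 and 0.21. The part of hindbrain content in the member differences was not tested.

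Markers of the striatum and the medial habenula, which also hold cholinergic cells, were counted in the same way. The 10 striatal projection neuron genes were all negative in J27a against J27b (median -0.14) and summed to 933 to 990 TPM in J27a and 927 to 1294 in J27b. All 10 were also negative in J27a and in J27b against J2 lf/lf (medians -0.51 and -0.37). Of these, 4 and 0 were at an unadjusted p under 0.05 by edgeR, and 0 were called. In J17a against Wild type 9 striatal genes were positive and 1 negative (median 0.22). In J17a they summed to 1980, 1107 and 1044 TPM. Of the replicates high in Slc18a3, replicate 1 had the highest striatal sum of the series and replicate 3 the lowest of its group. Of 7 medial habenula genes, 3 were positive in J27a against J27b (median -0.10) and 1 in J17a against Wild type (median -0.13). No relation of these lists with a member had an adjusted permutation p under 0.05.

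Choroid plexus transcripts come from cells of the ventricles. All 5 tested genes were negative in J27a against J27b (median -0.84) and in J27a against J2 lf/lf (median -1.14), with 1 and 4 at an unadjusted p under 0.05 and 0 called by edgeR. They summed to 942.9 to 1060 TPM in J27a, 1032 to 3321 in J27b and 1375 to 4250 in J2 lf/lf. The ranges of J27a and J27b overlapped. The part of choroid plexus content in the member differences was not tested.

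Transcripts of cortical glutamatergic neurons mostly had the opposite sign in J27a against J27b. Of 8 tested genes 7 were positive there (median 0.20), with 0 called by edgeR and 0 at an unadjusted p under 0.05. They summed to 1330 to 1518 TPM in J27a and 1256 to 1288 in J27b. In J17a against Wild type 3 of the 8 were positive and 5 negative (median -0.016). Over the 14 libraries the r of this list was -0.66 with Slc5a7 (permutation p = 0.0101, adjusted p = 0.151), -0.63 with Ache (permutation p = 0.0148, adjusted p = 0.185) and -0.61 with Slc18a3 (permutation p = 0.0188, adjusted p = 0.202). Within groups those values were -0.13, -0.33 and -0.49. Slc17a6, the vesicular glutamate transporter of subcortical neurons, had a log2 fold of -0.70 (SE 0.26, edgeR adjusted p = 0.804) in J27a against J27b. It belongs to a list of 7 vesicular transporters of other transmitters, of which 3 were positive and 4 negative in that comparison (median -0.04). The part of cortical content in the member differences was not tested.

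The wider acetylcholine pathway held no called gene in the 4 tested comparisons. Of 10 genes for choline transport, choline phosphorylation, acetylcholinesterase anchoring and related steps, 0 passed the edgeR test in any of them or in the joint test, and 2 at most were at an unadjusted p under 0.05 (in J27a against J2 lf/lf). In J27a against J27b, 5 were positive and 5 negative (median -0.01), and the largest differences were -0.46 (SE 0.25) for Prima1, the membrane anchor of acetylcholinesterase, and -0.34 (SE 0.38) for Pemt, which makes choline lipids. Prima1 was also at -0.60 (SE 0.25) in J27a against J2 lf/lf (edgeR adjusted p = 0.683).

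Receptors gave the same count. Of the 5 muscarinic receptor genes 0 passed by edgeR, and 2 were at an unadjusted p under 0.05 in the joint test, with 3 positive and 2 negative in J27a against J27b. Their largest difference in any of the 4 comparisons was -0.57 (SE 0.16) for Chrm4, the receptor of striatal neurons and cortex, in J27b against J2 lf/lf (edgeR adjusted p = 0.565). Of 16 nicotinic receptor subunit genes 12 were tested and 0 passed by edgeR, with 2 at an unadjusted p under 0.05 in the joint test, and 6 were positive and 6 negative in J27a against J27b. The subunits Chrnd and Chrng, which belong to the muscle receptor, were at 0 in every library.

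One gene of the transcription factor list passed the joint test. Gbx2, a homeobox factor of the developing thalamus and of striatal cholinergic interneurons, was at 7.99, 8.88 and 8.94 CPM in J27b and at 2.08, 2.91 and 2.03 CPM in J27a (joint edgeR adjusted p = 0.0178). It was at 8.60 ± 0.53 CPM in J27b, 4.68 ± 2.45 in J2 lf/lf, 2.80 ± 0.54 in J1 lf/lf (SD, n = 3 each) and 2.69 ± 1.06 in J17b (SD, n = 2), so J27b stood above every library of the other groups. In J27a against J27b its log2 fold was -1.88 (SE 0.30, edgeR adjusted p = 0.0656). The other 8 tested factors and neurotrophin receptors of that list, which include Isl1, Lhx6 and Nkx2-1, were not called.

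Neighbouring genes were examined because Chat and Slc18a3 lie on the same chromosome as Mapk8 (chromosome 14, 33377898 to 33447158). The gap from Chat to Mapk8 is 911908 bases, with 17 annotated genes of which 6 were tested. Of the 6, edgeR called 0 in J17b against J1 lf/lf (1 positive, median log2 difference -0.36), and 5 were positive in J17a against Wild type (median 0.24). Signs leaned to 1 side elsewhere too, with 6 positive in J1 lf/lf against Wild type (median 0.29) and 0 in J27a against J2 lf/lf (median -0.42). In J17b against Wild type 4 were positive (median 0.03), and in J27a against J27b 2 were (median -0.31). Ogdhl, the tested gene next below Chat, had a log2 fold of -0.003 (SE 0.07) in J17a against Wild type, and Ercc6, the next above, one of 0.06 (SE 0.09). Over the 5 nearest tested genes on each side, folds in that comparison ran from -0.12 (Timm23) to 0.01 (Parg) below Chat and from 0.06 to 0.68 (3425401B19Rik, SE 0.59) above it, against 1.23 for Slc18a3.

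The genes whose pattern over the 20 libraries was most like each member were drawn from 14059 tested genes. For Slc18a3 they were Acly (ATP citrate lyase, r of 0.87), Aldh3a2 (0.81), Sv2c (a synaptic vesicle protein, 0.79), Mcam (0.79) and Susd2 (0.77). For Slc5a7 they were Susd2 (0.84), Sv2c (0.79), Slc8a3 (0.78), Rimkla (0.78) and Vat1l (0.77). Acly and Susd2 also stood among the 5 nearest to Chat, at 0.72 and 0.69, with Nudt2, Gps1 and Arhgef40 between them.

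Ache and Lhx8 had other neighbours. For Ache they were Tekt5 (0.82), Capns1 (0.81), Adssl1 (0.79), Mmp15 (0.79) and Disp2 (0.78). For Lhx8 they were Athl1 (0.68), Ctns (0.66), Cxxc1 (0.65), Tfcp2 (0.64) and Pvt1 (0.63), the lowest values of the 5 members. Within groups of the same 20 libraries, after group means were subtracted, Acly had an r of 0.77 with Slc18a3 and 0.78 with Chat, and Susd2 one of 0.66 with Slc5a7. All these genes were picked for the highest r over those libraries, Wild type and J17a among them, so the values are a description and not a check.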

How the data were processed

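Brain RNA was poly(A)-enriched and read from both ends on a NovaSeq6000, per the labels. For each gene the authors deposited an estimated count and a TPM value. The submitters' processing notes name cutadapt, RSEM and the build mm10, with no order of steps. RSEM divides reads that match several genes by likelihood, so 4.11% of the estimated counts were not whole. Annotation, versions and strand setting: not given in the sources used here. Overlapping and antisense genes are therefore uncertain. The members and all gene lists were chosen with earlier results of these data known.

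Groups were taken from the titles, and library totals ran from 21395041 to 33828755 over 20 libraries. For tests in edgeR 4.0.16 under R 4.3.3 the estimated counts were rounded. Steps were TMM factors (0.975 to 1.03), filterByExpr (16063 genes kept) and a robust quasi-likelihood fit to all 20 libraries with a mean per group (common dispersion 0.0145). Tests were two-sided, with Benjamini-Hochberg adjustment over all genes tested and a threshold of 0.05. The joint test covered the 5 groups other than Wild type and J17a. Folds are the first group over the second, intervals are 95% intervals, and per-library values are CPM computed from the estimated counts with TMM factors. Correlations used log2 CPM with permutation p from 100000 resamples. Libraries were shuffled across all groups used, and no permutation was made within groups. The fit and the permutation test were tried on simulated data.

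All 5 members are named in full. Of each list the text names at most the 2 members with the largest absolute fold in a comparison and those called, and for each member the 5 tested genes of mean logCPM at least 0 with the highest r. The tested genes next to Chat are named by position, and marker genes named as examples of a list were chosen after their values were seen. Values of 1 marker gene are not reported here. Positions are from GENCODE M21 (mm10) and promoters from RefSeq (GRCm38.p6), with 5 of 5 members matched.

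The alternatives left out each library in turn, fitted a comparison's groups alone, dropped the low-count filter, or added the replicate number as a block or the title number above 10 as a term. Size factors and tests of DESeq2 1.42.0 and limma 3.58.1 on log2(TPM + 0.1) or log2(TPM + 1) were also tried. Leaving out the 3 libraries high in pituitary transcripts was chosen after seeing the data. Counts of replicates differed by more than sampling noise in every pair (chi-square per degree of freedom at least 5.43). The highest values were those of Wild type replicate 3 against replicates 1 and 2 (51.6 and 62.09).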

Additional observations from a re-analysis of the deposited data

How the results depend on the processing

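Of 295 values of the 5 genes in the 4 tested comparisons under alternatives, 276 kept their direction and 19 reversed, none of them past the threshold. The count of members called moved from 0 to 1, which was Slc5a7, in the joint test with DESeq2 and in the joint test and J27a against J27b with only the groups of the comparison. It stayed at 0 under the replicate block in all 5 tests. The replicate numbers do not pair the libraries: of 57 pairs of same-numbered libraries, 11 had a correlation over 0.1. The replicate block changed no call, and with it Lhx8 in J27a against J27b turned to 0.0127; DESeq2 size factors gave 0.0005999 and the DESeq2 test 0.00194. With the title number as a term, Ache in J17b against J1 lf/lf was -0.0737, Lhx8 there was 0.73, and Chat in J27b against J2 lf/lf was 0.29. With each library left out, the range in J17b against J1 lf/lf was -0.23 to 0.39 for Chat, -0.0589 to 0.24 for Slc18a3, -0.0351 to 0.0821 for Ache and -0.46 to 0.15 for Lhx8. It was -0.18 to 0.0932 for Chat in J27b against J2 lf/lf. For Lhx8 it was -0.12 to 0.39 in J27a against J2 lf/lf, -0.0813 to 0.35 in J27b against J2 lf/lf and -0.24 to 0.27 in J27a against J27b. The r of Ache and Lhx8 was 0.13 without the libraries high in pituitary transcripts. The cause was not tested. Of 590 described values, 13 moved by more than the SD between replicates. Lhx8, with as few as 31 estimated counts in a library, is the least precise of the 5.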
